A study of Mus musculus with 6 samples.

Results

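The 10 genes described here, Axin2, Dkk1, Dact1, Sp5, Myc, Tnfrsf19, Has2, Phlda1, Lef1 and Notum, are targets and feedback regulators of Wnt signalling in the presomitic mesoderm. They were taken by gene symbol from the array annotation, and each of the 10 has 1 probe, out of 13840 genes with a probe of their own among 33012 probes. The presomitic mesoderm, the not yet segmented paraxial tissue behind the youngest somite, was dissected at embryonic day 10.5 from 2 groups of mouse embryos, both out of matings between Nrarp heterozygotes. The first group is the Nrarp knockout, in which LacZ stands in place of the coding region, and the second is the wild-type littermates. The Nrarp protein carries ankyrin repeats, is made in response to Notch and limits Notch in turn. Each group had 3 one-colour arrays numbered 1 to 3. In all, 12 presomitic mesoderms had been collected per genotype, and the labels do not say how they were shared out over the arrays. The p-values therefore cover the spread between these arrays, part or all of which may be technical. All values are the deposited intensities, which are linear and scaled so that the median probe of each array lies just under 1, and the number of arrays limits the precision.

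In canonical Wnt signalling, a ligand at the receptor stops the destruction of beta-catenin, which then enters the nucleus and switches on target genes with LEF/TCF factors. Several of these targets act back to dampen the pathway, and in the mouse presomitic mesoderm a set of them is switched on and off with each somite, out of phase with the cyclic Notch targets. Axin2, Dkk1, Dact1, Sp5, Myc, Tnfrsf19, Has2 and Phlda1 belong to this cyclic set. Lef1 encodes one of the nuclear factors, and Notum is an extracellular enzyme that inactivates Wnt ligands. In zebrafish, Nrarp protein stabilises Lef1 protein, a step that transcript levels do not measure. A pool of embryos caught at different phases averages over the cycle, and how phases were spread over the arrays was not stated.

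The words bound by LEF/TCF factors were looked up in RefSeq promoters (build GRCm38.p6, 250 bases before to 50 after each annotated start), because the 10 genes were chosen as Wnt targets. The words searched were CAAAG with 2 letters before it that are each A or T, on both strands, and no matches overlapped in the members. The table held 10 promoters of 6 members, and 4 of the 10 carried a word, against 16.9% of all 32851 promoters of the same length. Myc, Has2, Phlda1 and Notum had no entry. The promoters of Sp5 and Dkk1 carried 2 words each, and 1 of the 4 Lef1 promoters and 1 of the 2 Tnfrsf19 promoters carried 1 word. Sp5 and Dkk1 are printed because they hold the words, and Axin2 because it is the classic feedback target and its window holds none of these letters. Words are in capitals, 5′ to 3′ on the gene's strand. In Sp5 (chr2:70474673-70474972, plus strand) they begin at -222 and at -104 relative to the start site, the second on the opposite strand. In Dkk1 (chr19:30549447-30549746, minus strand) both lie on the opposite strand, at -117 and at -98. The Axin2 window is chr11:108920099-108920398 on the plus strand. A match is a description of the letters and not a shown binding site.
Sp5: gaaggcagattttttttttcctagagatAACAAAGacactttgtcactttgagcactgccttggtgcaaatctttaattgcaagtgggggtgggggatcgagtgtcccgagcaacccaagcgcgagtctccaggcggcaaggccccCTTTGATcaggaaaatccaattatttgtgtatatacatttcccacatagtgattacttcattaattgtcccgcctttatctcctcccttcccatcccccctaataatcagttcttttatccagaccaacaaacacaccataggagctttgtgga
Dkk1: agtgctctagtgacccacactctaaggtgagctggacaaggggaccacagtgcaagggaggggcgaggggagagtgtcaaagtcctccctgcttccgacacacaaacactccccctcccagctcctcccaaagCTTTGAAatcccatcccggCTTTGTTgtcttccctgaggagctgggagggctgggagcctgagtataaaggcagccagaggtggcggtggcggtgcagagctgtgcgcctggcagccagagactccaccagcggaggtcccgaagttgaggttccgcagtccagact
Axin2: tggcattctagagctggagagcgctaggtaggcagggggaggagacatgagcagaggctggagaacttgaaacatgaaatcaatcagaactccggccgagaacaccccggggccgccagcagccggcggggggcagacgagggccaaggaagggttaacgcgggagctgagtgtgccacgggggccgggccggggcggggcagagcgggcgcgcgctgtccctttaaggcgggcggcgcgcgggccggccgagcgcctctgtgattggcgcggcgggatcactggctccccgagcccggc

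The 14 measured markers of the dissected tissue differed in brightness, and Tbx6 and Dll3 were bright on all arrays. Cdx1 was dim, at 2.47, 0.333 and 0.401 in the knockout and 1.21, 0.224 and 0.372 in wild type, below the array medians in replicates 2 and 3. The T-box factor gene Tbx6 read 487, 848 and 802 on the knockout arrays and 416, 745 and 657 on the wild-type arrays, and the ligand gene Dll3 lay between 471 and 605. Embryonic globins were among the brightest probes. The endothelial and blood list, with 12 of 13 genes measured, summed to 4985 to 7843 in the knockout and to 5875 to 7805 in wild type. Nrarp read 14.3, 42.5 and 23.3 in the knockout against 318, 429 and 448 in wild type (log2 difference -4.03). Whether its probe lies in the replaced part is not stated. In the limma fit on genotype, 0 of 33012 probes had an adjusted p under 0.05 and 217 (0.657%) had an unadjusted p under 0.05. With the replicate number as a block, 2 probes passed (0.00606%), Nrarp (adjusted p = 0.00042) and the Notch target gene Hes5 (log2 difference 2.09, adjusted p = 0.00578). Intensities on the replicate 1 arrays were more spread: the 75th over the 10th percentile was 56.9 in the knockout and 42.7 in wild type, against 12.4 to 16.0 on the other arrays.

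None of the 10 Wnt genes passed between genotypes, with or without the replicate block (limma adjusted p = 1.00 for each without it and 0.999 for each with it). Of the 10 log2 differences, 5 were positive and 5 negative, and their median was 0.0073, beside a median of -0.0063 over all probes. The groups of 3 overlapped for all 10 genes. Only 3.78% of all probes had groups that did not overlap, so this does not set the 10 genes apart. The differences ran from 1.13 for Dact1 to -0.72 for Notum, and 8 of the genes lay between -0.42 and 0.30. Leaving out single arrays, which unbalances the replicate numbers, turned the sign of 6 genes (Axin2, Sp5, Tnfrsf19, Has2, Phlda1 and Lef1), while Dkk1, Dact1, Myc and Notum kept theirs. In bulk tissue a lower share of a cell type and less RNA per cell cannot be told apart.

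**Figure D1:**
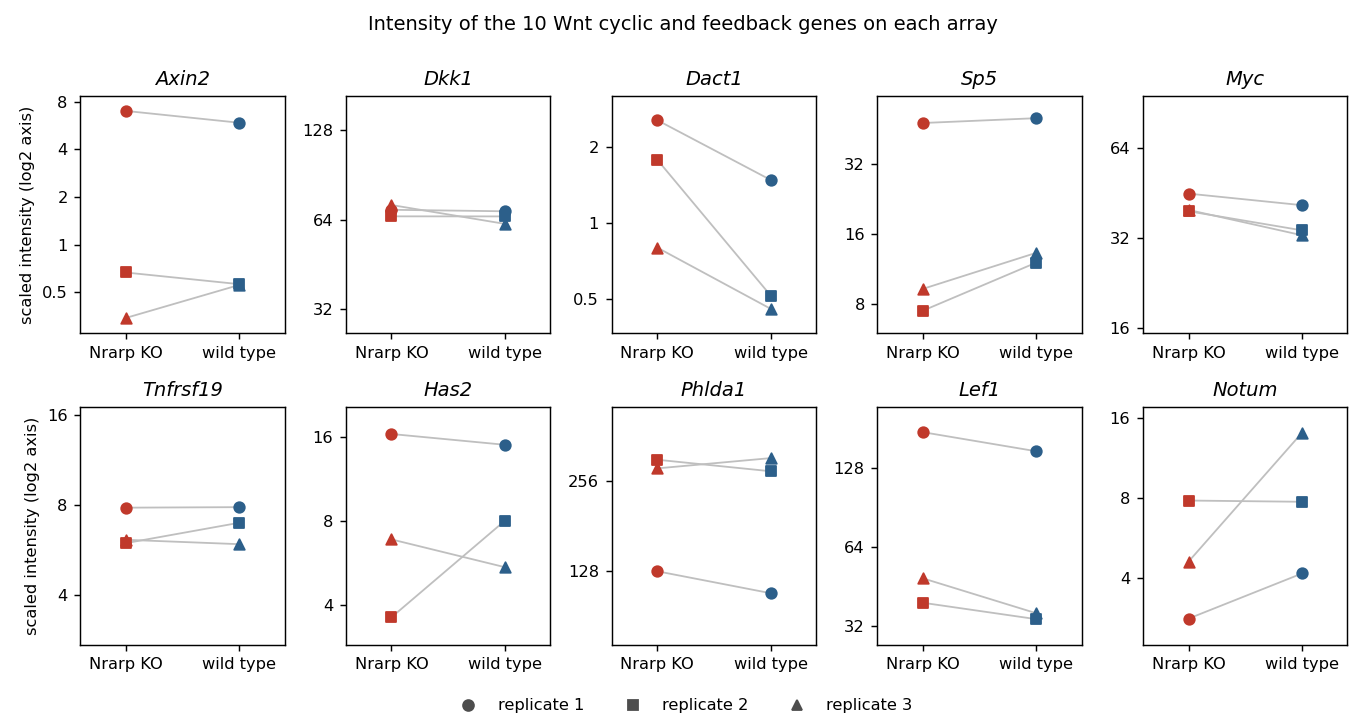
Scaled intensity (log2 axis) of each of the 10 genes on the 3 Nrarp knockout arrays (left, red) and the 3 wild-type arrays (right, blue), with symbols for the replicate number and grey lines joining arrays of the same number. For Axin2, Sp5, Lef1 and Phlda1 the replicate 1 arrays of both genotypes stand apart from the other 4. For Has2, Tnfrsf19, Myc and Notum they also lie on one side of the other 4, by less. No gene has all knockout arrays on one side of all wild-type arrays.

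Among the genes that restrain the pathway inside the cell, Axin2, the scaffold of the beta-catenin destruction complex and a direct feedback target, showed no difference that this design could resolve. It read 7.0, 0.665 and 0.343 on knockout arrays 1, 2 and 3, against 5.89, 0.561 and 0.555 on wild-type arrays 1, 2 and 3. The replicate 1 arrays of both genotypes were high, and the other 4 lay below their array medians. The log2 difference was -0.067 (SE 1.32 without the block and 0.41 with it), and the blocked 95% interval of the knockout over wild-type ratio, 0.497 to 1.84, includes 1. The pairs gave 0.25, 0.25 and -0.69.

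Dact1, which encodes a Dishevelled-binding protein that modulates Wnt signalling, had the largest difference of the 10, at a low level. Its intensities were 2.56, 1.78 and 0.801 in the knockout and 1.48, 0.517 and 0.458 in wild type. Each knockout array was higher than the wild-type array of its number, but knockout replicate 3 lay below wild-type replicate 1, so the groups overlapped. Knockout replicate 3 and wild-type replicates 2 and 3 lay below their array medians. The means were 1.71 ± 0.880 in the knockout and 0.819 ± 0.575 in wild type (SD, n = 3 each), a log2 difference of 1.13. As a ratio this is 2.18, with a 95% interval of 0.752 to 6.33 without the block and 1.10 to 4.33 with it. A two-sided exact permutation test on the log2 values gave p = 0.2, and 3 against 3 arrays cannot go below 0.1.

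Outside the cell, Dkk1 encodes a secreted antagonist of the LRP co-receptors, and its probe was bright and the steadiest of the 10. It read 69.0, 65.6 and 71.6 in the knockout against 68.2, 65.6 and 61.9 in wild type. The groups overlapped, since wild-type replicate 1 lay above knockout replicate 2, with means of 68.7 ± 3.01 and 65.2 ± 3.17 (SD, n = 3 each). The log2 difference was 0.076, and the 95% interval of the ratio was 0.727 to 1.53 without the block and 0.884 to 1.26 with it.

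Notum encodes a carboxylesterase that removes the lipid from Wnt ligands. Its arrays read 2.83, 7.83 and 4.63 in the knockout and 4.18, 7.75 and 14.1 in wild type. Wild-type replicate 3 was the highest of the 6 arrays, and the replicate 2 arrays of the 2 genotypes were nearly equal. The log2 difference was -0.72, made up of -0.56, 0.02 and -1.60 within the pairs, and without wild-type replicate 3 it was -0.28. The ratio was 0.609 (95% interval 0.242 to 1.53 without the block and 0.379 to 0.976 with it).

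Of the 3 transcription factor genes, Lef1 encodes a factor through which beta-catenin acts on its targets. It read 176, 39.2 and 48.6 in the knockout against 149, 33.9 and 35.7 in wild type. Within each replicate number the knockout array was the higher one, by 0.24, 0.21 and 0.44 on the log2 scale, and both replicate 1 arrays were far above the rest. The mean log2 difference was 0.30, a ratio of 1.23 (95% interval 0.374 to 4.05 without the block and 1.03 to 1.47 with it). Without knockout replicate 1 the difference was -0.37, since the high wild-type array of that number then stands alone.

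Sp5 encodes a zinc-finger repressor that is switched on directly by Wnt and dampens other targets. Its intensities were 47.9, 7.50 and 9.31 in the knockout and 50.3, 12.1 and 13.3 in wild type. The knockout array was lower within each number, by a log2 difference of -0.069 in replicate 1, -0.69 in replicate 2 and -0.51 in replicate 3. The mean difference of -0.42 is a ratio of 0.746 (95% interval 0.198 to 2.81 without the block and 0.574 to 0.969 with it). Without wild-type replicate 1 it was 0.24, and without knockout replicate 2 it was 0.075.

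Myc, the growth-promoting transcription factor gene, read 45.0, 39.3 and 39.7 in the knockout against 41.2, 33.9 and 32.6 in wild type. The knockout array was slightly higher in each pair, and wild-type replicate 1 lay above knockout replicates 2 and 3. The log2 difference was 0.21, and the ratio of 1.15 had a 95% interval of 0.760 to 1.76 without the block and 0.957 to 1.39 with it.

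The remaining cyclic genes encode a receptor, an enzyme and an intracellular protein. Tnfrsf19, a receptor of the tumour necrosis factor family, read 7.86, 5.98 and 6.13 in the knockout and 7.89, 6.99 and 5.93 in wild type, a log2 difference of -0.061. Has2, the hyaluronan synthase gene, read 16.3, 3.63 and 6.88 in the knockout and 15.0, 8.02 and 5.48 in wild type, a log2 difference of -0.23. The order of the Has2 arrays was reversed between replicates 2 and 3, with pair differences of -1.15 and 0.33. Phlda1, which encodes a pleckstrin homology-like domain protein, read 128, 301 and 282 in the knockout and 108, 276 and 305 in wild type, a log2 difference of 0.086. For these 3 genes the groups overlapped and the pairs disagreed in sign. The blocked 95% intervals of the ratio were 0.709 to 1.30 for Tnfrsf19, 0.546 to 1.33 for Has2 and 0.898 to 1.26 for Phlda1.

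**Figure D2:**
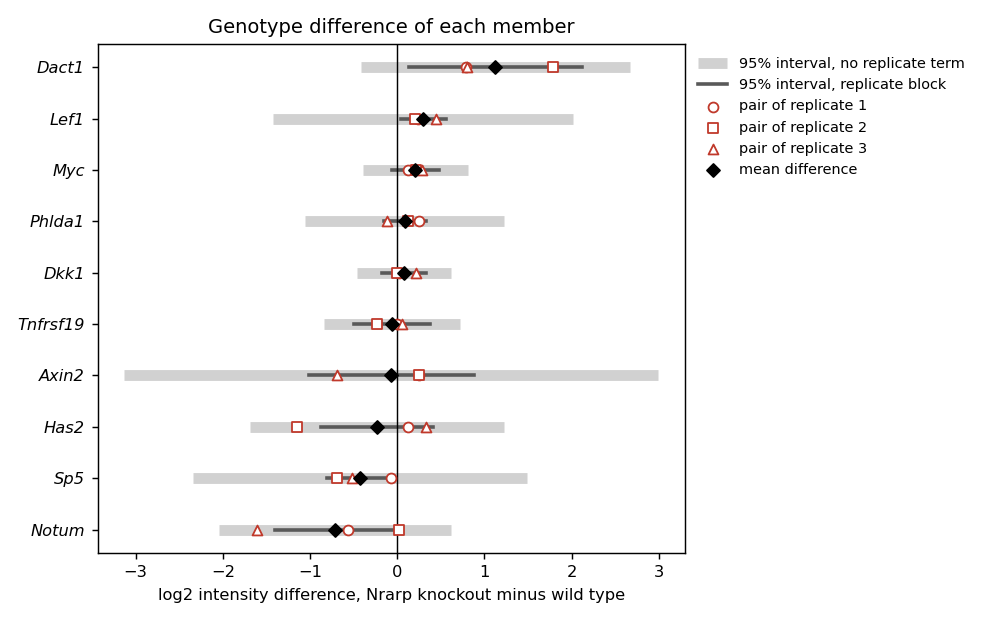
Log2 intensity difference of each gene, Nrarp knockout minus wild type. Diamonds are mean differences, open symbols are the 3 pairs of equal replicate number, wide grey bars are 95% intervals of the limma fit without a replicate term and thin bars those with the replicate block; the wide bars of all 10 genes cross 0, and Dact1 at 1.13 and Notum at -0.72 are the outermost.

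The genotypes were then compared within replicate numbers. Correlations between arrays did not tell numbers 2 and 3 apart, so those pairs rest on the numbers alone. Dkk1, Dact1, Myc and Lef1 were higher in the knockout in all 3 pairs and Sp5 was lower in all 3, so that 5 of 10 kept 1 sign, against 23.7% of all probes. For the same 5 genes both knockout arrays of replicates 2 and 3 lay on one side of both wild-type arrays, and the replicate 1 pair had the same sign, which 15.5% of all probes showed. For Dkk1 this rests on readings that were equal to 3 digits in pair 2. In the blocked fit 4 of 10 had an unadjusted p under 0.05, against 3.75% of all probes. These were Lef1 and Dact1 on the higher side (1.76% of all probes) and Sp5 and Notum on the lower (1.99%). The genes were chosen with earlier results of these data known, and the count was 3 of 10 with quantile normalization and the block (3.96% of all probes). It was 1 of 10, Dact1, when the variance prior of the blocked fit ignored the intensity level (4.52%), and 2 of 10, Sp5 and Notum, with replicates 2 and 3 alone and the block (5.84%). None of these 4 genes passed after adjustment over all probes in any of these fits.

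The replicate number separated the members more than genotype did, and the medians over all probes ran the same way, so this is not particular to the members. For 9 of the 10 genes the log2 difference between replicate 1 and the mean of replicates 2 and 3 was larger in size than the genotype difference. The exception was Dkk1 (0.054 against 0.076), and the share of all probes with a larger replicate difference was not counted. The median size was 1.33 for the replicate difference and 0.22 for the genotype difference, beside 0.858 and 0.224 over all probes. Limma's F-test of the replicate number, with genotype in the fit, passed for 5 of 10 members, against 27.8% of all probes. This test was chosen after the separation of replicate 1 had been seen.

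Axin2 was 12.4-fold higher in replicate 1 (log2 difference 3.64, adjusted p = 0.000974), Sp5 4.77-fold (2.25, adjusted p = 0.000121) and Lef1 4.15-fold (2.05, adjusted p = 5.4e-05). The Axin2 readings in replicates 2 and 3, 0.343 to 0.665, lay below the array medians, so the size of its fold rests on dim values. Has2 was 2.72-fold higher (1.44, adjusted p = 0.0178), and Phlda1 was lower, by a log2 difference of -1.31 (adjusted p = 0.000184). All 5 differences were seen in both genotypes. Dact1 (1.35, adjusted p = 0.0957) and Notum (-1.20, adjusted p = 0.0514) did not pass, and Myc, Tnfrsf19 and Dkk1 differed by 0.25, 0.33 and 0.054. After quantile normalization, which takes away the wider spread of the replicate 1 arrays, 5 of 10 passed again (23.6% of all probes). Axin2 (3.37), Sp5 (1.74), Lef1 (1.85) and Phlda1 (-1.49) still did, Notum now did (-1.83, adjusted p = 0.00816) and Has2 did not (0.67, adjusted p = 0.272). The differences of Dkk1, Myc and Tnfrsf19 turned negative under this scaling, at -0.24, -0.19 and -0.44.

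**Figure D3:**
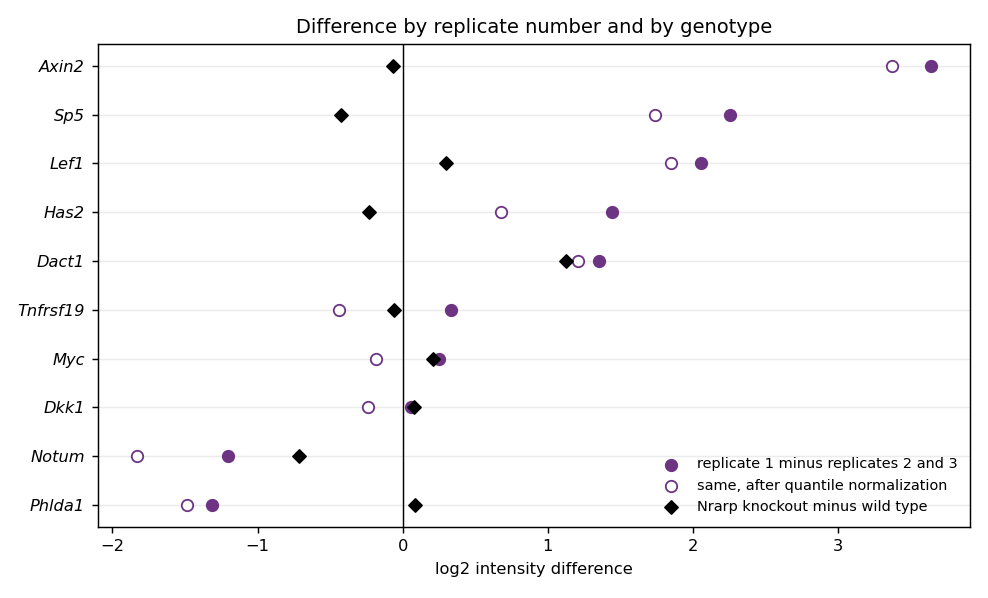
Log2 intensity difference of each gene between the replicate 1 arrays and those of replicates 2 and 3 (filled circles, and open circles after quantile normalization), beside the difference of Nrarp knockout minus wild type (diamonds). Axin2 lies at 3.64 by replicate number and at -0.067 by genotype, and Phlda1 and Notum lie below 0 by replicate number.

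Other genes of the tissue differed between replicate numbers as well. Among clock genes of the Notch and FGF branches, 12 of 16 measured passed the same F-test (27.8% of all probes), 10 of them higher in replicate 1. After quantile normalization 10 of the 16 passed (23.6% of all probes). The clock repressor gene Hes7 read 64.1, 1.63 and 1.19 in the knockout and 54.2, 1.36 and 2.09 in wild type. Msgn1, a Wnt-dependent presomitic factor gene picked here after its values were seen, read 50.1, 3.18 and 4.30 in the knockout and 50.2, 3.59 and 2.80 in wild type. Both were thus high on the replicate 1 arrays, as Axin2, Sp5 and Lef1 were, whereas Tbx6 was lower there. Of 14 measured presomitic markers 9 passed (27.8% of all probes), 8 of them higher in replicate 1, and 9 passed after quantile normalization (23.6%). The shares of all probes are for either direction and were not split by direction.

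Lists of other cell types were read against the replicate number in the same way, beside the 27.8% of all probes that passed. The count was 3 of 10 measured for surface ectoderm (all higher in replicate 1), 2 of 10 for lateral plate and limb (both lower) and 2 of 9 for gut and notochord (both higher). It was 4 of 11 for neural tube (2 higher in replicate 1 and 2 lower), 6 of 12 for somites (4 higher, 2 lower) and 7 of 12 for endothelium and blood (4 higher, 3 lower). The median log2 differences between replicate 1 and the other arrays were 0.87 for ectoderm, -1.15 for lateral plate and limb, -0.55 for gut and notochord, -0.87 for neural tube, -0.10 for somites and 0.40 for endothelium and blood. The median over all probes was -0.33. After quantile normalization the list medians were, in that order, 0.49, -0.91, -0.54, -0.73, 0.24 and 0.32, beside -0.12 over all probes. Several lists were largely dim: 7 of 11 neural and 6 of 10 lateral plate and limb genes had a mean log2 intensity below the median probe.

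Summed intensities follow the brightest genes of a list and did not always run the same way as its median. The ectoderm sums were 389 and 409 in replicate 1 and 264 to 272 in the others, and the lateral plate and limb sums were 19.6 and 21.2 against 35.6 to 38.2. Neural markers summed to 33.7 and 38.0 against 22.9 to 32.7, where Sox2 alone gave 23.4 and 28.0 in replicate 1. Gut and notochord markers summed to 73.9 and 77.9 against 52.7 to 68.8, where Cldn6 gave 50.4 and 51.8 in replicate 1. Endothelial and blood markers summed to 4985 and 5875 against 6816 to 7843, with the globin gene Hba-x at 1472 and 1419 against 3350 to 3737. The somite sums overlapped, at 771 and 953 against 890.2 to 962. Markers of other cell types were well above the array median on the arrays of replicates 2 and 3, among them Krt8 of epithelia (71.8 to 89.3), Kdr of endothelium (65.9 to 96.1) and Isl1 of lateral plate (13.4 to 18.8). Others, such as Trp63 of skin, Cdh5 of endothelium and Tbx5 of the limb, lay below 1 there. The part of these cells in the replicate difference of the Wnt genes was not tested.

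The genes whose arrays moved most like those of Axin2, Sp5 and Lef1 were sought among genes with a mean log2 intensity of at least 1, by the root mean square distance of log2 values centred on each gene's mean over the 6 arrays. Nearest to Lef1, among 6811 genes, were Cdc42ep4 (0.050), Nup188 (0.068) and Ncstn (0.085). Nearest to Sp5 were Chtf18 (0.095), Uchl1 (0.11) and Ramp2 (0.12), and nearest to Axin2, among 6812 genes, were Fjx1 (0.23), Rell1 (0.24) and Gnpat (0.26). Because they were picked for moving like 3 members that were high in replicate 1, these 9 genes were high there too, in both genotypes. An example is Cdc42ep4 with 62.4, 13.6 and 15.8 in the knockout and 48.9, 11.9 and 11.8 in wild type. Members lay further off, but only the 3 nearest of each search are named. For Axin2, Sp5 ranked 634 and Lef1 891 among the 6812 genes, and for Sp5, Lef1 ranked 999 among 6811. Axin2 and Dact1 were too dim to be candidates. Lef1 stood at 0.40 from Sp5 and at 0.86 from Axin2, Sp5 at 0.77 from Axin2, and Dkk1 at 1.72 from Axin2.

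Other parts of the Wnt pathway gave 0 calls between genotypes as well, in the limma fits with and without the block. In the list of secreted and membrane inhibitors, the log2 difference was above 0 for 8 of 17 measured genes and below 0 for 9 (median -0.0063). The bright ones were close between genotypes, with Sfrp2, a secreted Frizzled-related protein gene, at 0.0057, Apcdd1, a membrane inhibitor gene, at 0.15 and Frzb at -0.21. Sost, the sclerostin gene, read 1.66, 21.2 and 0.840 in the knockout and 0.685, 0.621 and 0.611 in wild type. Its groups did not overlap, which held for 1 of the 17 genes against 3.78% of all probes. Sost was named for its small p in the limma fit. Its difference of 2.27 leans on knockout replicate 2, without which it was 0.89. Dkk2, a relative of Dkk1, was dim and differed by -1.30, with pair values of -0.78, -3.65 and 0.52.

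Among the intracellular feedback and destruction complex genes, 5 of 8 measured were above 0 and 3 below (median 0.027). Axin1, the constitutive relative of Axin2, was bright and differed by -0.10, Ctnnbip1, which keeps beta-catenin from its partners, by 0.062 and the kinase gene Gsk3b by -0.034. Dact2, the relative of Dact1, read 2.45, 1.23 and 1.21 in the knockout and 1.10, 0.614 and 1.04 in wild type. Every knockout array of Dact2 lay above every wild-type array, a log2 difference of 0.79 (SE 0.50), which did not pass (adjusted p = 1.00 in limma). Dact2 was named for its small p in that fit. Groups without overlap were found for 1 of the 8 genes, against 3.78% of all probes. Its pairs gave 1.15, 1.00 and 0.22, and like Dact1 it was dim.

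The nuclear partners, with 7 of 12 measured, were split into 3 above 0 and 4 below (median -0.038). The corepressor gene Tle4 was at -0.038, the coactivator gene Bcl9l at 0.033 and Ctnnb1, the beta-catenin gene, at -0.23. Tcf7l1, a LEF/TCF relative that mostly represses targets, read 4.09, 0.545 and 0.645 in the knockout and 5.13, 1.76 and 1.27 in wild type. It was lower in the knockout in each pair, by -0.32, -1.69 and -0.98, and 23.7% of all probes kept the same sign in all 3 pairs. Its readings on knockout replicates 2 and 3 lay below the array medians, so the larger pair differences rest on dim values. Tcf7l1 was named for its small p in the limma fit. It did not pass with the block (limma adjusted p = 0.999). Tle2 differed by 0.95 and was dim in wild-type replicate 1 (0.304).

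Wnt target genes of the tailbud other than the members had a median of 0.16 over 14 measured genes, 8 positive and 6 negative. Tbx6 was at 0.23, Bambi, a BMP pseudoreceptor gene, at -0.14, the cyclin gene Ccnd1 at 0.59 and the stem cell receptor gene Lgr5 at -0.42. Ccnd1 read 158, 184 and 189 in the knockout and 113, 69.8 and 203 in wild type, where replicate 2 was low and replicate 3 was the highest of all. Neither Tbx6 nor Ccnd1 passed with the block (limma adjusted p = 0.999 for each).

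The Wnt ligand and R-spondin genes had a median of -0.0076 over 11 genes, 5 above 0 and 6 below. Wnt3a, the main canonical ligand of the tailbud, read 84.8, 47.4 and 51.6 in the knockout and 83.9, 46.8 and 53.6 in wild type, a difference of -0.0076. Rspo3, which potentiates Wnt signalling, read 137, 127 and 138 in the knockout against 150, 207 and 141 in wild type. Its groups did not overlap (-0.29), which held for 1 of the 11 genes against 3.78% of all probes. Wnt6 differed by -0.10 and the dim Rspo4 by 0.80. None of the 11 passed. Relatives and partners of the members had a median of 0.027 over 16 genes, 8 above 0 and 8 below, with Mycl at -0.055, the Myc partner gene Max at 0.14, Phlda3 at 0.18 and Sp4 at 0.43. Has1, a relative of Has2 named for its small p, was dim, at 0.548, 0.782 and 0.603 in the knockout and 0.234, 0.50 and 0.327 in wild type. Its groups did not overlap (0.92), which held for 1 of the 16 genes against 3.78% of all probes.

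**Figure D4:**
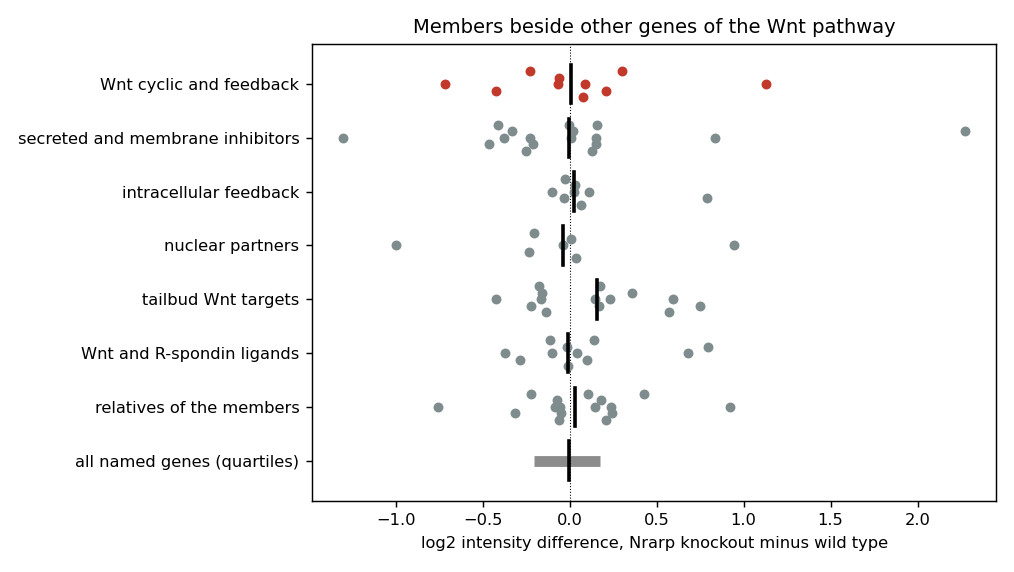
Log2 intensity difference, Nrarp knockout minus wild type, of each measured gene (points) in 7 lists of Wnt genes, with the median of each list as a black line, and the quartiles and median of all 13840 named genes at the bottom. The medians lie between -0.038 and 0.16, and the point farthest right is Sost at 2.27.

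The 16 measured clock genes of the Notch and FGF branches held the 2 probes that passed in the blocked fit (0.00606% of all probes), Nrarp and Hes5. Of the 2, Nrarp is the targeted gene itself, so its pass is no result about the clock genes. With Nrarp among them, the 16 genes had a median log2 difference of -0.068. Hes7 differed by -0.10 and Snai1, a repressor of epithelial genes, by 0.69 (limma adjusted p = 0.999 with the block). The difference between the 2 sets of cyclic genes was not tested.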

How the data were processed

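Per the labels' protocols, cRNA of presomitic mesoderm was labelled with digoxigenin and read on AB1700 arrays, 1 sample each. The labels name a human array, whereas organism and probe annotation are mouse. The authors deposited linear probe intensities, scaled to array medians just under 1 (0.981 to 0.993). How background was corrected, and any filter, is not stated. There were 0 missing values and 0 at or below 0. Of 33012 probes, 14411 had 1 gene, 247 several and 18354 were unnamed here. A gene with several probes was given its brightest.

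Log2 intensities were fitted on genotype with limma 3.58.1 in R 4.3.3 (eBayes with intensity trend, two-sided, Benjamini-Hochberg over all probes, threshold 0.05), without further normalization or filter. The fits were run on simulated arrays with large differences placed in probes brighter than the median, and recovery was required of the blocked fit only. This check does not bear on dim probes or on small differences. Deviations from group means correlated by 0.757, 0.442 and 0.374 within replicate numbers, so the numbers were taken to pair the arrays. Across numbers 2 and 3 they also correlated, by 0.397 and 0.419, so the check does not tell numbers 2 and 3 apart, and the labels tie no number to a litter. Alternatives were the block, scaling, an offset of 1, array weights, a filter on dim probes and leaving out arrays. Other steps used scipy 1.17.1, numpy 2.4.6 and pandas 2.3.3 in Python 3.11.15, with plots by matplotlib 3.10.9.

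The members and lists were chosen with earlier results of these data known. Named genes are the 10 members, Nrarp, Hes5, Hes7 and Snai1, in each other Wnt list the 3 brightest and the 2 with the smallest p, and the 3 nearest to Axin2, Sp5 and Lef1. Markers stand outside this rule.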

Additional observations from a re-analysis of the deposited data

How the results depend on the processing

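No member passed under any of the 18 alternatives (smallest limma adjusted p 0.453, Notum with array weights). The signs of 4 members held under all 18, and Axin2 alone changed sign under 1 of the 12 that leave out no single array (0.032 with an offset of 1). The size of the Dact1 difference, 1.13, moved while its sign held. It was 0.57 with an offset of 1, 0.84 with array weights, 0.76 without knockout replicate 1 and 1.66 without wild-type replicate 1. With single arrays left out the log2 differences ran from -1.36 to 1.07 for Axin2, -1.26 to 0.24 for Sp5, -0.19 to 0.036 for Tnfrsf19, -0.80 to 0.29 for Has2, -0.39 to 0.48 for Phlda1 and -0.37 to 1.00 for Lef1. Among other named genes whose sign turned in this way they ran from -0.25 to 0.22 for Sfrp2, -1.20 to 0.49 for Frzb, -0.33 to 0.024 for Axin1, -0.073 to 0.19 for Ctnnbip1, -0.40 to 0.26 for Gsk3b, -0.22 to 0.12 for Tle4, -0.31 to 0.41 for Bcl9l, -0.89 to 0.19 for Ctnnb1, -0.017 to 0.49 for Tbx6, -0.27 to 0.24 for Wnt3a, -0.48 to 0.15 for Wnt6, -0.23 to 0.083 for Mycl, -0.024 to 0.85 for Sp4 and -1.94 to 1.57 for Hes7. Sfrp2 was at -0.033 with quantile normalization, with or without the replicate block, -0.083 with array weights and -0.039 with replicates 2 and 3 only, with or without the block. With array weights Ctnnbip1 was at -0.15, Gsk3b at 0.046 and Tle4 at 0.017, and with centring on 75th percentiles Gsk3b was at 0.018, Tle4 at 0.015 and Wnt3a at 0.045. The median of the members, 0.0073, was 0.060 with that centring, 0.053 with an offset of 1, -0.041 with replicates 2 and 3 only, with or without the block, and -0.27 to 0.20 with single arrays left out. The count of probes past the threshold, 0, was 2 with the replicate block, with quantile normalization and the block, and with replicates 2 and 3 only (with or without the block), and 1 with array weights. The block changed no other call. The fits of replicates 2 and 3 with the block and the tests of the replicate number were chosen after seeing the data. All members have 1 probe, so averaging probes gave the members no value. The cause of these shifts was not tested.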
